A study of Mus musculus with 6 samples.

Results

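The genes described here encode the subunits of the mitochondrial respiratory chain and of the ATP synthase that it drives. They were chosen by a rule on names, which uses no values. The rule and the gene lists below were set with earlier results of these data known. A probe counted when its transcript mapped in RefSeq to a symbol beginning with Nduf followed by a, b, c, s or v, to Sdha to Sdhd, to Uqcr, to Cox4 to Cox8, or to Atp5. The assembly factors beginning Ndufaf and the hypoxia isoforms Ndufa4l2 and Cox4i2 were left out. Of 22911 genes named on the array, 82 were members. RefSeq holds 105 genes that match the rule, of which 86 code for protein, and 4 of the protein-coding ones (Cox5b, Ndufb1, Ndufb4b and Ndufb4c) had no named probe. The members divide into 36 genes of complex I, 4 of complex II, 8 of complex III, 17 of complex IV and 17 of the ATP synthase, complex V. A gene with several probes, as 18 members had, was represented by its brightest one.

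Expression was measured on 6 one-colour Agilent arrays of male mouse lung, 2 per group. Myofibroblasts, the contractile cells that deposit matrix in injured tissue, came from bleomycin-treated lungs, where the drug provokes fibrosis, and were gated CD49e+ Sca1- Lin-. The steady-state fibroblasts were gated CD140a+ Lin- in untreated lungs, and homogenates of whole untreated lung served as controls. Each set held 50000 cells and 5.8 ng of total RNA was labelled, and strain, age, bleomycin dose and time after treatment are not given in the sources used here. The sorted groups differ in gate and in treatment at once, so the effects of the gate and of bleomycin cannot be told apart. Whether both samples of each group derive from different mice is not stated, and the p-values may therefore reflect technical spread alone.

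The chain passes electrons from NADH (at complex I) or succinate (at complex II) through ubiquinone to complex III, and through cytochrome c to complex IV, which reduces oxygen. Complexes I, III and IV pump protons across the inner mitochondrial membrane, and the ATP synthase lets them return while making ATP. Most subunits are encoded in the nucleus, and a few core ones by mitochondrial DNA. Several complex IV subunits come in a widespread form and a form typical of heart, skeletal muscle or testis.

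Values are log2 of a probe's signal over the 75th percentile of its array, called relative signal below, so 0 stands for that percentile. Levels of different genes cannot be compared, because probes differ in brightness. Between 65.5% and 73.4% of spots on an array were well above background and none was saturated. Of the members, 78 were well above background on all 6 arrays, and the testis isoforms Cox7b2 and Cox8c on none. The labels' cell types were checked against markers: all 7 myofibroblast markers, Acta2 and Postn among them, were called higher in myofibroblasts than in fibroblasts, and 5 of 7 resting fibroblast markers lower.

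Members stood higher in myofibroblasts as a group. Their median relative signal reached 3.07 and 3.36 in myofibroblasts, compared with 2.11 and 2.30 in fibroblasts and 2.23 and 2.16 in whole lung. Both myofibroblast arrays lay above all of the others, and the fibroblast and homogenate arrays overlapped. Summed over the 82 members, the signal was 1132 and 1294.5 times the array's 75th percentile in myofibroblasts, 641 to 673 times in fibroblasts and 682 to 688 times in homogenates.

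**Figure D1:**
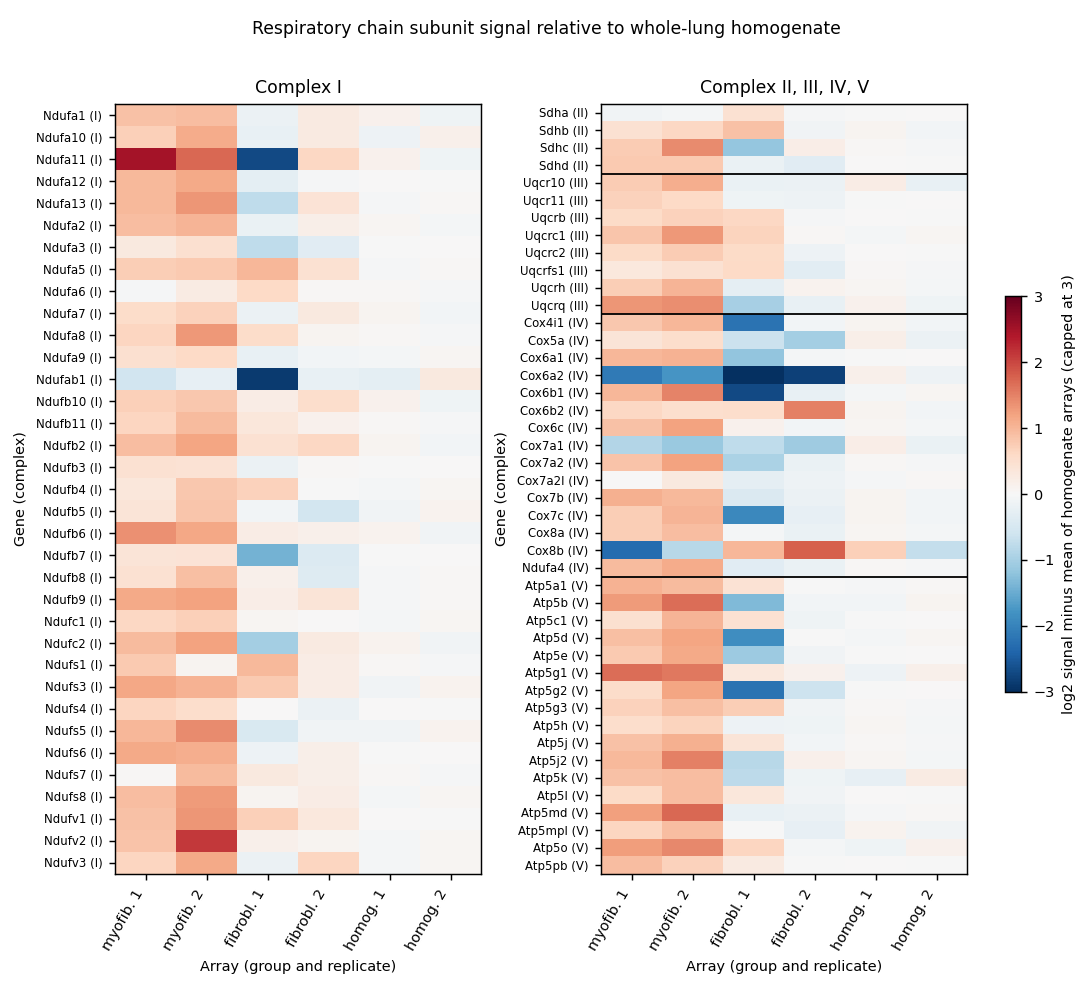
Log2 relative signal of 79 of the 80 subunit genes detected on at least 1 array, minus the mean of the 2 homogenate arrays, for each of the 6 arrays; genes are in rows by complex and colours are capped at 3. The myofibroblast columns are mostly red in all 5 complexes, Cox6a2 is blue in both sorted groups, and fibroblast replicate 1 holds dark blue cells that replicate 2 does not.

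Promoters of 4 members are shown for the transcription factor motifs that are textbook features of this gene family. The windows are the 250 bases before the annotated start, from RefSeq (GRCm38.p6), written on the gene's own strand. Capitals mark the motif of NRF1 (GCGC, any 1 base, then TGCGC) or CCGGAAG, the core of ETS family factors such as GABP, found on either strand. Cox6a1, Atp5k and Ndufs5 were called higher in myofibroblasts than in fibroblasts and hold a match, and Cox8b was the member called lower. More of the members called higher lack each motif than hold it. Calls fell on 6 of 13 tested members with an NRF1 match and 11 of 54 without one. For the ETS motif they fell on 4 of 12 and 13 of 55, where 9.21% of all tested genes were called higher. A link between motif and call was not tested.

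Cox6a1, chr5:115348959-115349208, minus strand: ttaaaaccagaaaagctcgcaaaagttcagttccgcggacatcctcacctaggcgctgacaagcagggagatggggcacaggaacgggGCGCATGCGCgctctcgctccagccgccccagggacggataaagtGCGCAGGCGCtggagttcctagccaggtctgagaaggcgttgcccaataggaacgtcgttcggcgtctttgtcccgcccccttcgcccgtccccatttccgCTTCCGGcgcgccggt
Atp5k, chr5:108434400-108434649, minus strand: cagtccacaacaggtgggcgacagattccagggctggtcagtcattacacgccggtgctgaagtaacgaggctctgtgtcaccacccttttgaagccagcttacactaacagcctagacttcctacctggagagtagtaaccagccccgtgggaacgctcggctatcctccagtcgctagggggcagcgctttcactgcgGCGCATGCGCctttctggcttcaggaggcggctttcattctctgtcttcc
Ndufs5, chr4:123718187-123718436, minus strand: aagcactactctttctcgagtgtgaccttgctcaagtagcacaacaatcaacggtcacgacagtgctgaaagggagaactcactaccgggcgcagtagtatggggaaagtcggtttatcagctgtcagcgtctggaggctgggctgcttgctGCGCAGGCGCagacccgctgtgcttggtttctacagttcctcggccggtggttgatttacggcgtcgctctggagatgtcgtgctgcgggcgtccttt
Cox8b, chr7:140900447-140900696, minus strand: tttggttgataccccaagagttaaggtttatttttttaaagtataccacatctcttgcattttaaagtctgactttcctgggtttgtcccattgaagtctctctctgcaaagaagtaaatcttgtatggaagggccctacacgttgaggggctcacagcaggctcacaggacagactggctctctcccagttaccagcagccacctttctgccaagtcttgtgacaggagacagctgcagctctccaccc

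Cox6a1 holds 2 NRF1 matches, starting 162 and 117 bases before the start, and an ETS match 16 bases before it. The match begins 50 bases upstream in Atp5k and 98 bases upstream in Ndufs5, and these letters are not in the Cox8b window. Over the 73 promoters that the table lists for 68 members, 14 (19.2%) held the NRF1 motif, against 3.74% of all 32851 promoters of that length. The ETS motif was in 12 (16.4%), against 6.91% of all promoters, and 3 members held both. G and C made up 56.3% of the bases in the member windows and 53.2% in all windows. Among members tested between the sorted groups, the 13 genes with an NRF1 match had a median log2 difference of 1.05 and the 54 without one 0.87. The 12 genes with an ETS match had a median of 1.0 and the 55 without one 0.85. Against homogenate the order was turned for NRF1, with medians of 0.87 with a match and 0.88 without, and the ETS medians were 0.92 and 0.88. These medians are descriptions, with no test.

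The first comparison, between the sorted groups, set myofibroblasts against steady-state fibroblasts. Of 80 members tested, 19 were called higher in myofibroblasts (23.8%, where 9.21% of all 16008 tested genes were) and 1 lower (1.25%, where 8.01% of all genes were). A call means a limma adjusted p under 0.05. The median log2 difference was 0.92 over the members and -0.06 over all genes, and 74 of the 80 differences were positive. In 64 members (80%) both myofibroblast arrays lay above both fibroblast arrays, against 30.3% of all genes, and in 2 (2.5%) both lay below, against 32.7%. Most single differences were near the limit of what 2 arrays a group can show: the adjusted p of the calls ran from 0.0166 to 0.0491, and 27 further members had one between 0.05 and 0.10. No member was called without myofibroblast replicate 2, without either homogenate array, or with only the 4 arrays compared (smallest limma adjusted p = 0.0501, 41 members at an unadjusted p under 0.05), and 2 were without myofibroblast replicate 1 and 38 without fibroblast replicate 2.

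The size of the members' shift depends on how arrays are put on 1 scale. In the authors' deposited table the median of all genes is itself -0.47 between the sorted groups, the members' median is 0.51 and 66 differences are positive. With the array median in place of the 75th percentile these values are 0.08, 1.06 and 75. Each of these scalings moves all genes of an array by 1 constant. The gap between the members' median and that of all genes, 0.98, therefore could not change among them. Quantile normalization can change it, and gave 0.76. The share of higher genes among all calls, 53.5% here, was 64.6% with median scaling and 25.4% in the authors' table.

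**Figure D2:**
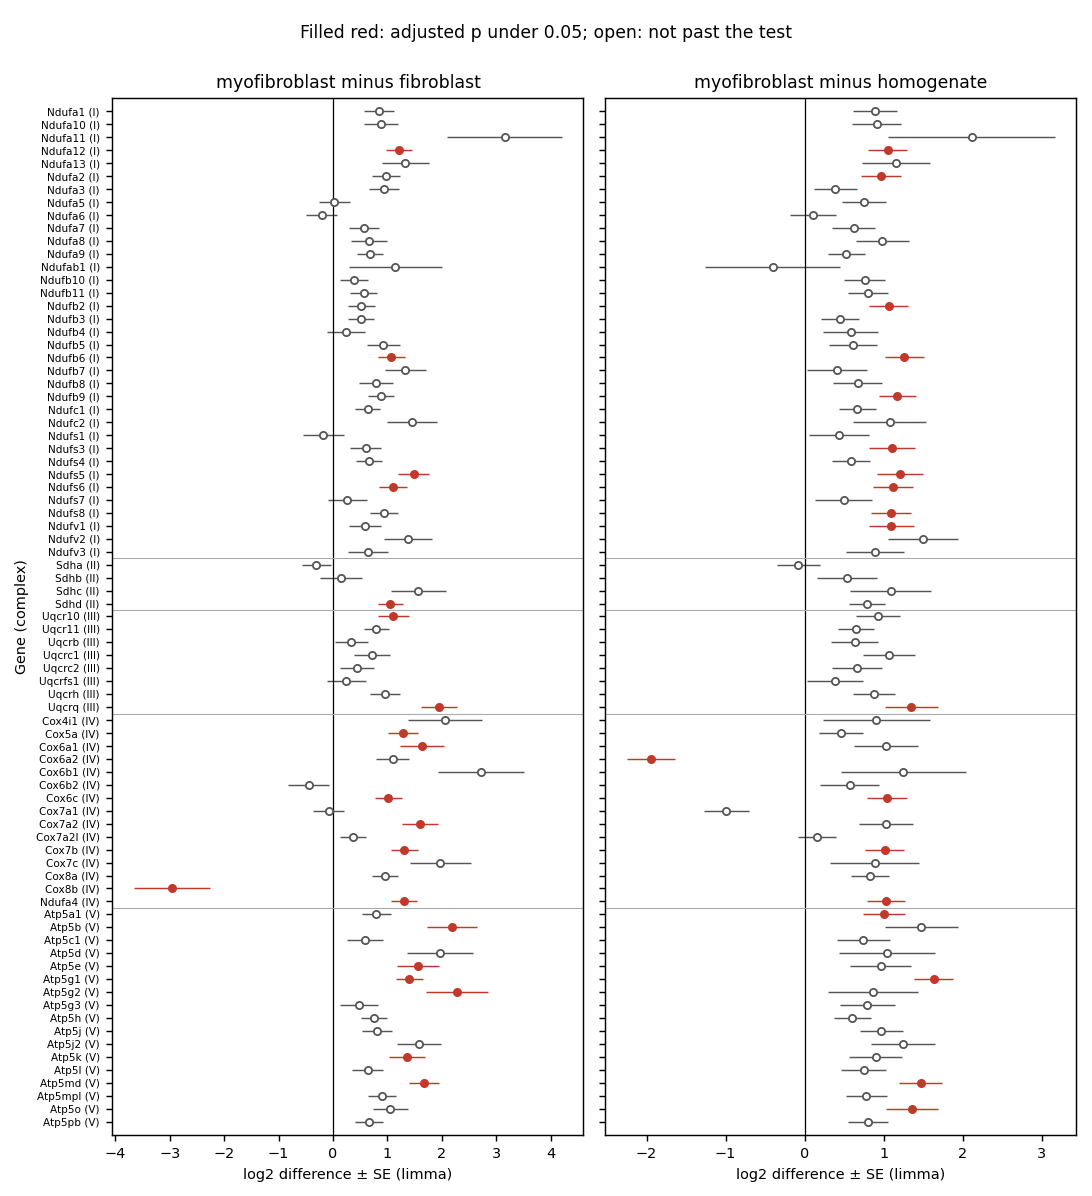
Log2 difference with limma's standard error for the same 79 subunit genes, ordered by complex, for myofibroblasts minus fibroblasts (left) and minus homogenate (right); filled red points passed the test and open ones did not. Most points lie to the right of 0 on both sides, and Cox8b on the left and Cox6a2 on the right are the red points below 0.

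Markers of dividing cells moved with this comparison. Of 10 cycling markers, 9 were called higher in myofibroblasts, and their summed signal was 54.0 to 59.9 times the 75th percentile in myofibroblasts, 2.98 to 3.34 in fibroblasts and 8.82 to 9.67 in homogenates. Top2a, Bub1 and Ccnb1 were not well above background on either fibroblast array. Smooth muscle markers also moved, with 6 of 7 called higher in myofibroblasts and a summed signal of 283 to 337 in myofibroblasts, 22.6 to 32.8 in fibroblasts and 45.0 to 49.3 in homogenates. Of 13 alveolar and airway epithelial markers, 10 were tested, all 10 had lower means in myofibroblasts and 3 were called lower (Scgb1a1, Scgb3a2 and Sftpc). Their summed signal was 16.7 to 22.6 in myofibroblasts, 79.1 to 129.3 in fibroblasts and 905.2 to 917.6 in homogenates, and Cdh1 was not well above background in either sorted group. Endothelial markers had 1 of 6 called higher and 1 lower, and leukocyte markers 2 of 7 higher and 0 lower. The part of cell division or of other cell types in the members' difference was not tested.

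Complex I, the NADH dehydrogenase, had a median difference of 0.82, with 34 of 36 positive. By limma 4 of the 36 were called higher (11.1%, near the 9.21% of all genes) and none lower, and 21 had an unadjusted p under 0.05. The 4 called genes are accessory subunits, which surround the catalytic core. Ndufs5, an accessory subunit of the membrane arm, had relative signals of 2.34 and 2.78 in myofibroblasts, 0.90 and 1.25 in fibroblasts and 1.26 and 1.46 in homogenates. Both myofibroblast arrays were above the other 4, and the difference from fibroblasts was 1.48 ± 0.29 (SE, n = 2 per group, limma adjusted p = 0.0262). Ndufa12 read 3.06 and 3.23, 1.79 and 2.06, and 2.10 and 2.08 in the same order, and was higher by 1.21 ± 0.25 (adjusted p = 0.0293, limma). Its myofibroblast arrays also stood clear of both other groups. For Ndufs6, near the zinc site of the matrix arm, the arrays gave 3.44 and 3.39, 2.14 and 2.48, and 2.29 and 2.31, a difference of 1.11 ± 0.25 (limma adjusted p = 0.0387). Ndufb6 of the membrane arm gave 3.41 and 3.19, 2.27 and 2.19, and 2.14 and 1.94, a difference of 1.07 ± 0.24 (limma adjusted p = 0.0394). In both genes the myofibroblast arrays were the highest.

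None of the 7 core subunits of complex I, which carry the flavin and the iron-sulphur clusters, was called between the sorted groups by limma, and 3 had an unadjusted p under 0.05. Ndufs1, with iron-sulphur clusters of the electron input module, had relative signals of 2.01 and 1.31 in myofibroblasts and 2.21 and 1.46 in fibroblasts, which overlap (difference -0.18 ± 0.38). Ndufv2, an iron-sulphur subunit, gave 2.69 and 3.94 against 1.97 and 1.90 (1.38 ± 0.44, limma adjusted p = 0.0858). The groups did not overlap, and the myofibroblast arrays lay more than 2-fold apart. Ndufs8, another iron-sulphur subunit, gave 2.99 and 3.34 against 2.16 and 2.30 (0.94 ± 0.26, limma adjusted p = 0.0603). Ndufs3 differed by 0.60 ± 0.29, Ndufv1, which binds the flavin and NADH, by 0.59 ± 0.29 and Ndufs7 by 0.26 ± 0.36. A second Ndufv1 probe differed by 2.02 (limma adjusted p = 0.0727), with fibroblast arrays more than 2-fold apart. The 10 Ndufb genes of the membrane arm had a median of 0.67, and all 10 differences were positive. Of these, 1 was called (10%, near the 9.21% of all genes).

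Ndufab1, the mitochondrial acyl carrier protein, was dim, with relative signals of -2.64 and -2.32 in myofibroblasts, -4.96 and -2.29 in fibroblasts and -2.38 and -1.77 in homogenates. Its groups overlapped, with fibroblast replicate 1 the lowest array, and it was well above background on 1 of the 2 fibroblast arrays (difference 1.15 ± 0.86). Ndufa11 had the largest estimate of all members, 3.16 ± 1.05, from 1.74 and 0.95 against -3.48 and -0.15, and did not pass the test (limma adjusted p = 0.0936).

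Complex II, succinate dehydrogenase, also belongs to the citric acid cycle and is wholly nuclear-encoded. Sdhd, a membrane anchor, had relative signals of 3.21 and 3.23 in myofibroblasts, 2.24 and 2.10 in fibroblasts and 2.45 and 2.41 in homogenates. Its myofibroblast arrays were the highest and it was the 1 gene of the 4 called, at 1.05 ± 0.23 (limma adjusted p = 0.0357). That is 25%, against 9.21% of all genes called higher. Sdhc, the other anchor, gave 2.86 and 3.52 against 0.94 and 2.30, a difference of 1.57 ± 0.51 that did not pass (limma adjusted p = 0.0876). Sdha, the flavoprotein, gave 1.80 and 1.82 in myofibroblasts, 2.36 and 1.86 in fibroblasts and 1.89 and 1.90 in homogenates. Its myofibroblast arrays were the lowest by a small margin (-0.30 ± 0.27 from fibroblasts), while a second Sdha probe differed by 0.72 (limma adjusted p = 0.327). Sdhb, the iron-sulphur subunit, gave 0.98 and 1.15 against 1.42 and 0.42 by its brightest probe, which overlap (0.15 ± 0.38). A second Sdhb probe gave 0.80 and 1.33 against -0.18 and 0.28 without overlap, a difference of 1.01 that did not pass (limma adjusted p = 0.078).

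In complex III, the cytochrome bc1 complex, all 8 differences were positive with a median of 0.75. Of these, 2 were called higher (25%, against 9.21% of all genes). Uqcrq, a small ubiquinone-binding subunit, had relative signals of 4.88 and 4.95 in myofibroblasts, 2.57 and 3.34 in fibroblasts and 3.68 and 3.44 in homogenates. The myofibroblast arrays were clear of all others, with a difference of 1.96 ± 0.33 (limma adjusted p = 0.0185), and the call held under 12 of 17 alternative settings. Uqcr10, another small subunit, differed by 1.11 ± 0.28 (limma adjusted p = 0.0487), from 3.39 and 3.71 against 2.42 and 2.46. A second Uqcr10 probe differed by 1.98 without passing (limma adjusted p = 0.121). The 3 large subunits did not pass: the core proteins Uqcrc1 (0.71 ± 0.33) and Uqcrc2 (0.44 ± 0.32), and Uqcrfs1, the Rieske iron-sulphur protein (0.24 ± 0.36). Uqcrc2 and Uqcrfs1 had overlapping arrays, and Uqcrc1, at 0.41 and 0.87 against 0.25 and -0.40, did not.

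Complex IV, cytochrome c oxidase, showed the largest median difference of the 5 complexes, 1.28 over 15 tested genes, with no test between complexes. Of these genes 6 were called higher (40%, against 9.21% of all genes) and 1 lower (6.67%, against 8.01%). The median relative signal of the 17 complex IV genes was 1.72 and 2.46 on the fibroblast arrays. Against homogenate the complex IV median difference was 0.89, below the 0.96 of complex V. The 10 widespread subunits were all positive, with a median of 1.46 and 6 called higher (60%). Cox6a1 had relative signals of 5.90 and 5.94 in myofibroblasts, 3.72 and 4.83 in fibroblasts and 4.89 and 4.90 in homogenates (difference 1.65 ± 0.40, limma adjusted p = 0.0470). The fibroblast arrays lay more than 2-fold apart, and both were below the myofibroblast ones. Cox7a2 gave 3.51 and 3.87, 1.72 and 2.46, and 2.71 and 2.61 (1.60 ± 0.34 from fibroblasts, limma adjusted p = 0.0323). Cox7b gave 3.83 and 3.74, 2.34 and 2.60, and 2.85 and 2.69 (1.31 ± 0.25, limma adjusted p = 0.0238). In both genes the order was myofibroblast, homogenate, fibroblast with no overlap. Ndufa4, once assigned to complex I and now counted in complex IV, gave 4.47 and 4.65, 3.19 and 3.32, and 3.56 and 3.50. It shared that order and differed by 1.30 ± 0.24 (limma adjusted p = 0.0223), and Cox5a and Cox6c differed by 1.28 ± 0.28 and 1.02 ± 0.26 (limma adjusted p = 0.0346 and 0.0491). Cox8a, the widespread isoform of the smallest subunit, stood at the threshold, with 2.97 and 3.15 against 2.18 and 2.04 and a limma adjusted p of 0.05 (0.95 ± 0.24).

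Cox4i1 and Cox6b1, which are widespread, and the isoform Cox6a2 had large differences that did not pass. Cox4i1 gave 4.98 and 5.16 in myofibroblasts against 1.95 and 4.07 in fibroblasts (2.06 ± 0.68, limma adjusted p = 0.0911). Cox6b1 gave 1.04 and 1.52 against -2.68 and -0.20 (2.72 ± 0.79, limma adjusted p = 0.0696). In each the groups did not overlap, and fibroblast replicate 1 was far below replicate 2. Cox7a2l, which links complexes III and IV, was close to level, with 6.34 and 6.61, 6.05 and 6.17, and 6.28 and 6.35 (0.37 ± 0.24).

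The tissue isoforms of complex IV did not share one pattern. Cox8b, the form of heart, muscle and brown fat, had relative signals of -6.15 and -4.68 in myofibroblasts, -2.85 and -2.07 in fibroblasts and -3.14 and -4.57 in homogenates. It was well above background on both fibroblast arrays and on neither myofibroblast array. Taking each dim array at no less than its lowest signal well above background, Cox8b was at least 4.51-fold lower in myofibroblasts. It was called on the measured difference instead, -2.96 ± 0.70 (limma adjusted p = 0.0422), which includes signals not well above background. That call held under 4 of 16 alternatives, with adjusted p between 0.0238 and 0.193. Cox6a2, the heart and skeletal muscle form, gave -3.19 and -2.83 in myofibroblasts, -4.35 and -3.86 in fibroblasts and -0.90 and -1.23 in homogenates. The 3 groups did not overlap, with homogenates highest, and the sorted groups differed by 1.10 ± 0.30 (limma adjusted p = 0.0626). Cox7a1, another muscle form, gave -1.57 and -1.82, -1.47 and -1.77, and -0.51 and -0.90, so the sorted groups overlapped and the homogenates were higher. Cox6b2, the testis form, gave 2.79 and 2.67, 2.69 and 3.66, and 2.24 and 2.08, with overlap between the sorted groups (-0.45 ± 0.37).

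**Figure D3:**
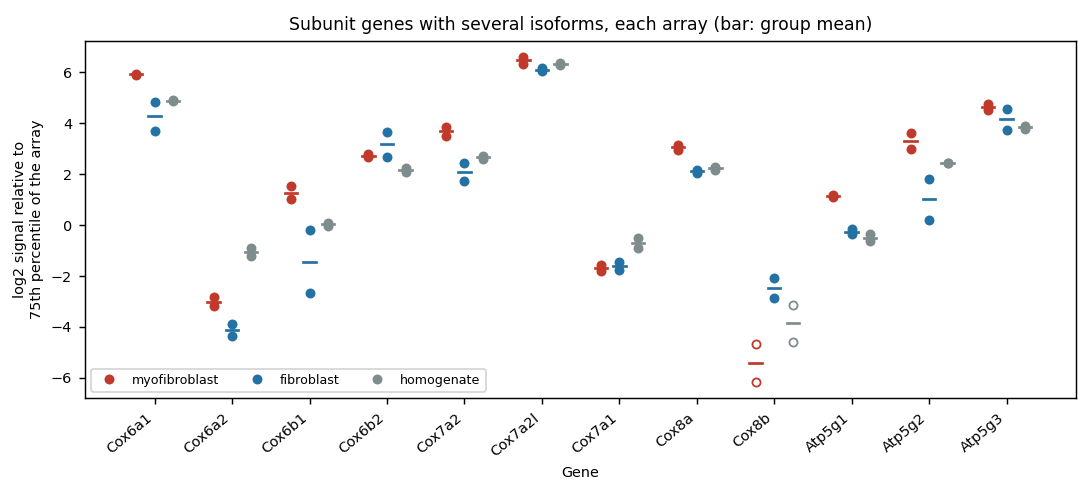
Log2 relative signal of subunit genes that have several isoforms; each point is 1 array, bars are group means, and open points mark groups without a signal well above background on both arrays. Cox6a1, Cox7a2, Cox8a and Atp5g1 are highest in myofibroblasts, whereas Cox6a2 and Cox7a1 are highest in homogenates and Cox8b in fibroblasts; levels compare across groups within a gene, not between genes.

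All 17 ATP synthase genes had positive differences, with a median of 1.06, and 6 were called higher (35.3%, against 9.21% of all genes). Atp5md, a small membrane subunit, had the smallest adjusted p of any member. Its relative signals were 3.32 and 3.81 in myofibroblasts, 1.87 and 1.92 in fibroblasts and 2.07 and 2.12 in homogenates, a difference of 1.67 ± 0.27 (limma adjusted p = 0.0166). The myofibroblast arrays were clear of the rest, and the call held under 12 of 17 alternatives, with adjusted p from 0.00774 to 0.0783. Atp5b, the catalytic beta subunit, gave 4.69 and 5.08, 2.07 and 3.33, and 3.32 and 3.49 (2.18 ± 0.46 from fibroblasts, limma adjusted p = 0.0316). Its other probes differed by 1.96 (adjusted p = 0.0376, limma) and 0.99 (adjusted p = 0.0751, limma), all in 1 direction. Atp5a1, the alpha subunit, gave 6.61 and 6.51 against 5.99 and 5.54 by its brightest probe (0.79 ± 0.27, limma adjusted p = 0.0959) and 2.14 by the other (limma adjusted p = 0.0378). Beta was thus called by its brightest probe, and alpha only by its dimmer one. That alpha probe read 0.01 and 1.38 on the fibroblast arrays, more than 2-fold apart. Atp5e, the epsilon subunit of the same catalytic head, gave 5.71 and 6.05 against 3.84 and 4.81 (1.56 ± 0.38, limma adjusted p = 0.0471). Atp5k, subunit e of the membrane part, gave 3.51 and 3.57 against 1.84 and 2.50 (1.36 ± 0.33, limma adjusted p = 0.0466).

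The c subunit, which forms the rotating ring, comes from 3 genes with the same mature protein. Atp5g1 had relative signals of 1.18 and 1.10 in myofibroblasts, -0.16 and -0.36 in fibroblasts and -0.63 and -0.35 in homogenates, and was higher than in fibroblasts by 1.40 ± 0.25 (limma adjusted p = 0.0213). Atp5g2 gave 2.98 and 3.62, 0.22 and 1.82, and 2.43 and 2.43, a difference of 2.28 ± 0.57 (limma adjusted p = 0.0481). Its fibroblast arrays lay more than 2-fold apart, both below all others. Atp5g3 gave 4.52 and 4.75, 4.58 and 3.74, and 3.88 and 3.79, so that the sorted groups overlapped (0.47 ± 0.35).

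The fibroblast arrays disagreed more than the other pairs, in the members as in all genes. Among 79 members well above background on both arrays of the group, 13 (16.5%) differed more than 2-fold between the fibroblast arrays. All 13 were lower in replicate 1, and the share over all genes was larger, 23.5%. Between the myofibroblast arrays 1 member did so (1.27%, against 7.84% of all genes), and between the homogenates 0 (against 2.83%). The SD of the log2 difference between replicates was 0.83 in fibroblasts, 0.29 in myofibroblasts and 0.18 in homogenates. Over all genes it was 0.88, 0.58 and 0.39. The 13 include Ndufa11, Sdhc, Cox4i1, Cox6b1, Cox7c, Atp5d and the called Cox6a1, Atp5b and Atp5g2. Of the 66 members within 2-fold between the fibroblast arrays, 60 differences from myofibroblasts were positive, the median was 0.79 and 16 were called, a subset chosen after the values were seen. Probes of the same gene did not always share this gap: of 20 further probes of 18 members, 10 differed by more than 2-fold in the same direction, and for 9 of those the gene's brightest probe did not. Uqcr10 gave -0.38 and 1.99 in fibroblasts by its second probe and 2.42 and 2.46 by its first, and Cox7c gave 1.87 and 1.71 by its second and 1.53 and 3.20 by its first. Of the 20 probes, 19 showed a positive difference between the sorted groups, with a median of 1.0, and 5 were called higher. What made these probes read low on that array was not tested.

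**Figure D4:**
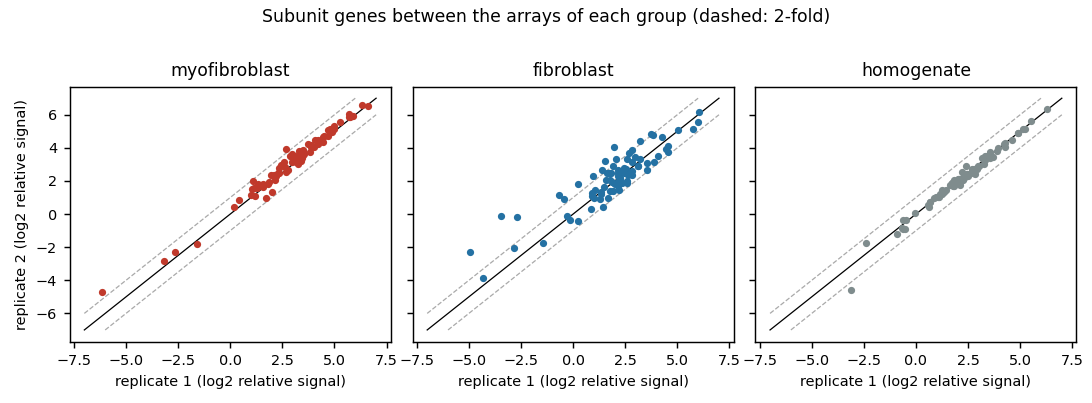
Log2 relative signal of each detected subunit gene on replicate 1 (horizontal) and replicate 2 (vertical) of each group; the solid line marks equal values and the dashed lines 2-fold. Myofibroblast and homogenate points follow the line, whereas among fibroblasts 13 genes well above background on both arrays lie above the upper dashed line.

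Fibroblasts and whole-lung homogenate were compared next, both untreated. Of 80 members, 0 were called higher by limma (8.09% of all 17065 tested genes were) and 1 lower (1.25%, against 11.8% of all genes; 19.9% of all genes were called in either direction), and 6 had an unadjusted p under 0.05. The median difference was -0.07, against 0.03 over all genes, with 38 positive. In 16 members (20%) both fibroblast arrays lay above both homogenate arrays, against 32.4% of all genes, and in 24 (30%) below, against 30.4%. The median turned to 0.20 with median scaling, where that of all genes was 0.30. Without fibroblast replicate 2 the count of calls was 17, of which 15 were lower.

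Cox6a2 was the member that separated these groups. With the values given above it was lower in fibroblasts by -3.04 ± 0.30 (log2, limma adjusted p = 0.00208), and the call held under all 17 alternatives, with differences from -3.28 to -1.23. It was also lower in myofibroblasts than in homogenate, at -1.94 ± 0.30 (limma adjusted p = 0.00849), under 15 of 17 alternatives, the exceptions being without either homogenate array. In a homogenate, fewer cells of a type and less RNA per cell cannot be told apart. Heart and striated muscle markers followed the order of Cox6a2 only in part. Of 16 genes on that list, 10 were tested between fibroblasts and homogenate. In fibroblasts 4 were called lower (40%, against 11.8% of all genes) and 0 higher (against 8.09%). Between myofibroblasts and homogenate, 4 of 10 were called lower (40%, against 15% of all genes) and 2 higher (20%, against 11.9%). The list's summed signal was 6.65 to 8.26 in homogenates, 2.36 to 2.45 in fibroblasts and 19.5 to 20.5 in myofibroblasts, where Actc1 and Tnnt2 made up most of it. Myh6, the atrial myosin, read 1.40 and -0.59 in homogenates, -2.96 and -2.72 in fibroblasts and -3.27 and -2.97 in myofibroblasts. Of the list's other members, Actn2, Ckm and Ckmt2 were not well above background on any array. The part of muscle cells in the Cox6a2 difference was not tested.

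The other 2 muscle isoforms tested between these groups did not pass. Cox7a1 differed between fibroblasts and homogenate by -0.91 ± 0.28 (limma adjusted p = 0.0800), and Cox8b by 1.40 ± 0.70 (limma adjusted p = 0.236). Of the widespread complex IV genes, 9 of 10 had lower mean signal in fibroblasts than in homogenate, with a median of -0.60, and none was called by limma (1 had an unadjusted p under 0.05). Complex I genes were close to level, with a median of 0.04 and 21 of 36 positive.

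Myofibroblasts were also set against homogenate. Of 79 members tested, 18 were called higher (22.8%, where 11.9% of all 17165 tested genes were) and 1 lower (1.27%, where 15% were), the latter being Cox6a2. The median difference was 0.89, against -0.01 over all genes, and 75 were positive. Both myofibroblast arrays lay above both homogenate arrays in 72 members (91.1%, against 38.7% of all genes) and below in 3 (3.8%, against 38.8%). This comparison uses the same myofibroblast arrays as the first one, so the 2 are not independent. Homogenate also holds epithelial, endothelial, blood and immune cells: all 13 epithelial and all 10 endothelial markers were lower in myofibroblasts, and their part was not tested. No member was called without either homogenate array (13 had an unadjusted p under 0.05 each time), 4 and 2 were without myofibroblast replicate 1 and 2, and 55 without either fibroblast array. Sorted samples and homogenates lay in separate rows of the slide, so row and sample type cannot be told apart.

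By complex, with no test between them, complex I had 10 of 36 called higher (27.8%) and complex II 0 of 4 (1 at an unadjusted p under 0.05, limma). Complex III had 1 of 8 (12.5%), complex IV 3 of 14 (21.4%) and complex V 4 of 17 (23.5%). Over all tested genes the share was 11.9%, and that of complex III was near it. Among the 7 core subunits of complex I, 3 were called: Ndufs3 at 1.11 ± 0.29 (limma adjusted p = 0.0416), Ndufv1 at 1.10 ± 0.29 (limma adjusted p = 0.0420) and Ndufs8 at 1.09 ± 0.26 (limma adjusted p = 0.0297). Ndufs3 gave 4.47 and 4.35 in myofibroblasts against 3.18 and 3.41 in homogenates. Ndufv1 gave 1.94 and 2.38 against 1.07 and 1.06. By the brightest probe of each, fibroblasts lay between the other groups, at 4.08 and 3.53 for Ndufs3 and 1.77 and 1.37 for Ndufv1. By a second Ndufv1 probe the fibroblasts were lowest, at -1.97 and -0.15, with homogenates at -0.13 and 0.04 and myofibroblasts at 0.82 and 1.11. That probe was 1.0 above homogenate without passing (limma adjusted p = 0.258).

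Among the 18 genes called higher than in homogenate, the largest difference was in Atp5g1, at 1.63 ± 0.25 (limma adjusted p = 0.00807), a call that held under 15 of 17 alternatives. Atp5md came next among the called genes, at 1.47 ± 0.27 (limma adjusted p = 0.0143). Larger estimates that did not pass were those of Ndufa11 (2.11 ± 1.05), Ndufv2 (1.49 ± 0.44) and Atp5b (1.48 ± 0.46). Atp5o, the stalk subunit that confers oligomycin sensitivity, gave 3.19 and 3.38 in myofibroblasts, 2.58 and 1.87 in fibroblasts and 1.81 and 2.05 in homogenates, and was 1.36 ± 0.32 above homogenate (limma adjusted p = 0.0318). Uqcrq stood 1.35 ± 0.33 above, Ndufb6 1.26 ± 0.24, Ndufs5 1.21 ± 0.29 and Ndufb9 1.17 ± 0.24, with limma adjusted p of 0.0343, 0.0168, 0.0321 and 0.0189. In these genes the myofibroblast arrays were above the homogenate arrays without overlap. Atp5a1 was 1.0 ± 0.27 above homogenate (limma adjusted p = 0.0433) and Ndufs6 1.12 ± 0.25 (limma adjusted p = 0.0263).

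**Figure D5:**
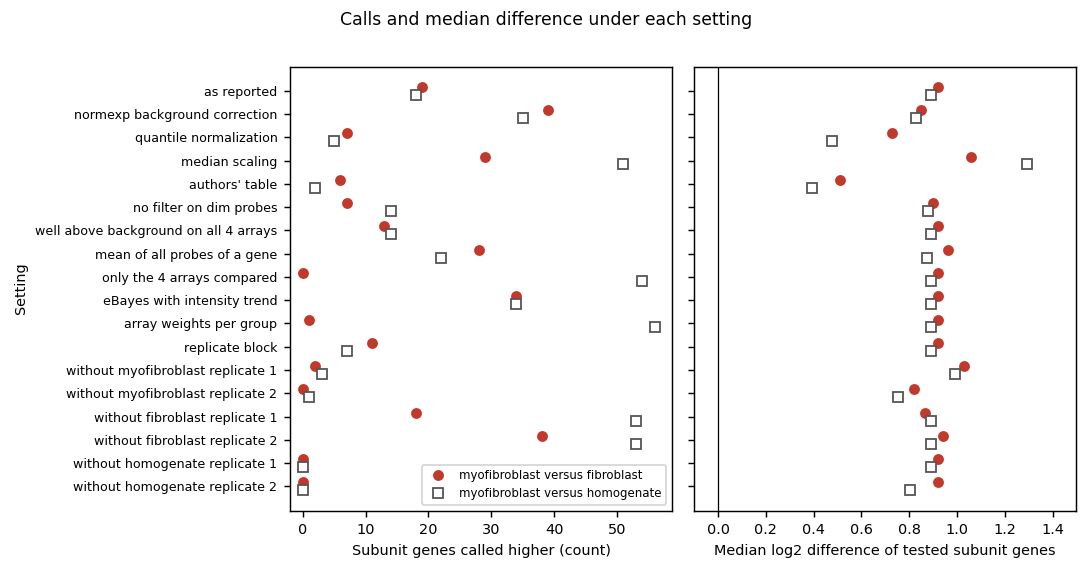
Number of subunit genes called higher in myofibroblasts (left) and their median log2 difference (right) under each processing setting, against fibroblasts (filled circles) and homogenate (open squares). The count runs from 0 to 39 against fibroblasts and from 0 to 56 against homogenate, whereas each median stays above 0, between 0.39 and 1.29.

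Genes that work beside the chain were counted from lists chosen by function, and are read against the 9.21% of all tested genes called higher between the sorted groups and the 8.01% called lower. Mitochondrial ribosomal proteins, which translate the mitochondrially encoded subunits, had 13 of 77 (16.9%) called higher in myofibroblasts than in fibroblasts and 0 lower, with a median of 0.90. Mrpl54 and Mrpl17 were the largest called changes, at 1.80 ± 0.32 and 1.74 ± 0.41 (limma adjusted p = 0.0211 and 0.0411). Assembly factors of the 5 complexes had 5 of 43 called higher (11.6%) and 1 lower, and a median of 0.12, so their share of higher calls was near that of all genes. Uqcc2, needed for cytochrome b in complex III, was called at 2.52 ± 0.35 (limma adjusted p = 0.0109), from -0.66 and -0.31 in myofibroblasts against -3.40 and -2.62 in fibroblasts. Sdhaf1, which matures the iron-sulphur subunit of complex II, gave 0.75 and 0.91 against -0.83 and -0.44, at 1.46 ± 0.26 (limma adjusted p = 0.0215). Cox14 was close behind at 1.46 ± 0.32 (limma adjusted p = 0.0369), and Pet117 was lower at -1.17 ± 0.28 (limma adjusted p = 0.0457).

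Among electron carriers and ubiquinone synthesis genes, 2 of 14 were called higher (14.3%) and 1 lower. Cycs, cytochrome c, gave 2.88 and 2.87 in myofibroblasts, 1.40 and 1.56 in fibroblasts and 1.68 and 1.76 in homogenates, higher than in fibroblasts by 1.39 ± 0.23 (limma adjusted p = 0.0181). Coq9, a ubiquinone synthesis factor, was higher by 2.13 ± 0.40 (limma adjusted p = 0.0243) and Coq10b, a ubiquinone-binding protein, lower at -1.27 ± 0.28 (limma adjusted p = 0.0343). The citric acid cycle had 1 of 13 called (7.69%), Idh3a at 1.13 ± 0.23 (limma adjusted p = 0.0310), with a median of 0.49.

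Mitochondrial carriers had 5 of 8 called higher and none lower. Slc25a5, an ADP/ATP carrier, gave 3.94 and 4.21 in myofibroblasts, 2.41 and 2.10 in fibroblasts and 3.19 and 3.28 in homogenates (1.82 ± 0.26 from fibroblasts, limma adjusted p = 0.0119). The outer membrane channels Vdac2 and Vdac3 differed by 1.34 ± 0.25 and 1.24 ± 0.29 (limma adjusted p = 0.0226 and 0.0418), and Vdac1 by 0.81 ± 0.30 without passing. Ucp2, an uncoupling protein family member, gave 1.08 and 1.97, -2.62 and -1.82, and 4.48 and 4.56, and Ucp3 gave 0.48 and 0.79, -4.02 and -2.91, and 3.65 and 3.63. In both the order was homogenate, myofibroblast, fibroblast with no overlap. Their differences between the sorted groups were 3.75 ± 0.43 and 4.11 ± 0.41 (limma adjusted p = 0.00609 and 0.00457). Slc25a3, the phosphate carrier, and Slc25a4 differed by -0.12 ± 0.46 and 0.40 ± 0.35 without passing, and Slc25a31 and Ucp1 were not well above background on any array.

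Of 20 regulators of mitochondrial gene expression tested, 2 were called higher (10%) and 2 lower (10%) in myofibroblasts than in fibroblasts, shares close to the 9.21% and 8.01% of all genes, with a median of -0.22. Ppargc1a, the coactivator PGC-1 alpha, was not well above background in myofibroblasts (-6.72 and -4.82). It gave -1.54 and -2.50 in fibroblasts and -3.11 and -2.80 in homogenates. It was at least 6.10-fold lower in myofibroblasts than in fibroblasts (limma adjusted p = 0.0224 for the measured difference, not the bound). Gabpb2, a GABP beta subunit, was lower at -1.96 ± 0.26 (limma adjusted p = 0.00975), from 0.88 and 0.56 against 2.82 and 2.53. Myc was higher by 1.13 ± 0.25 (limma adjusted p = 0.0375), from 3.42 and 3.43 against 2.35 and 2.23. Perm1, not well above background in fibroblasts, was at least 1.48-fold higher (limma adjusted p = 0.0480, again for the measured difference). Nrf1 (0.19 ± 0.25), Gabpa (-0.16 ± 0.23) and Tfam (0.19 ± 0.25), which encode the factors of the motifs above and of mitochondrial DNA transcription, did not pass. Neither did Gabpb1 (0.01 ± 0.45), Esrra (0.60 ± 0.38), Ppargc1b (-1.29 ± 1.01), Pprc1 (-0.23 ± 0.42), Hif1a (0.75 ± 0.33), Nrip1 (-1.03 ± 0.31) or Yy1 (-0.28 ± 0.38). Tfb1m (-0.78 ± 0.83), Tfb2m (-0.35 ± 0.55), Polrmt (-0.20 ± 0.28), Polg (-0.14 ± 0.37), Mterf1a (-0.86 ± 0.25) and Mterf3 (-0.51 ± 0.36) did not pass, and Esrrb, Esrrg and Twnk were too dim in the sorted groups to test.

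The hypoxia isoforms left out of the rule were also measured. Cox4i2 gave 2.16 and 1.86 in myofibroblasts, 1.76 and 1.88 in fibroblasts and 2.56 and 2.65 in homogenates, with overlap between the sorted groups (0.19 ± 0.25). Ndufa4l2 gave -3.81 and -3.29, -3.04 and -2.21, and -2.59 and -2.61, lowest in myofibroblasts without passing (-0.93 ± 0.37, limma adjusted p = 0.136). The mitochondrially encoded subunits had no probe that could be named and are not analysed here.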

How the data were processed

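Spot intensity values in the deposited scanner output were written by Agilent Feature Extraction 12.0.3.1, per the file headers and the submitters' processing notes. The processed signal had background and a spatial trend subtracted, with no scaling between arrays. The authors' deposited table of normalized intensity equals that signal times 1 constant per array (5.17 to 6.93), by a method that the sources used here do not state. RNA extraction is likewise not stated.

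Here outlier spots were dropped, log2 values averaged per probe, and scaled by subtracting the log2 75th percentile of the array (224 to 282 before log2, over 59305 spots). Probes were named through RefSeq by transcript accession: 32994 of 56605 matched, and 23611 were left unnamed. The brightest probe stood for a gene. Testing required a signal well above background throughout 1 or both of the groups compared, with limma 3.58.1 in R 4.3.3 (lmFit, eBayes, two-sided) on all 6 arrays together, giving 3 residual degrees of freedom (5.57 with the prior). Benjamini-Hochberg adjustment ran over every gene tested, and SE is limma's. Files were read with Python 3.11.15.

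Named members were the 10 largest called changes each way per comparison, isoform families, core subunits, Ndufa4 and Ndufab1. From the other lists came all regulators, carriers and hypoxia isoforms, and the 2 largest called changes each way. Other members, such as Ndufa11, were named after their values were seen. The members, lists and rule were chosen with earlier results of these data known. In simulated data for the first comparison (16008 genes, 50 changed by each fold), the fit called 0% of the 2-fold changes, 30% of those of 4-fold, 62% of the 8-fold and 68% of the 16-fold ones, and 2 unchanged genes. The simulation held far fewer changed genes than the 2758 called in the data, which makes its adjustment stricter. Its rates therefore do not carry over to the reported fit, which called differences near 2-fold (Cox6c, 1.02 in log2). One member is counted but not reported by name here. All arrays shared 1 slide and 1 scan. The number of arrays limits the precision.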

Additional observations from a re-analysis of the deposited data

How the results depend on the processing

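Calls of single members depend on the estimated spread, while the sign of the median did not change in the comparisons with myofibroblasts. Between myofibroblasts and fibroblasts, 20 calls became 39 with normexp background correction, 35 with an intensity trend, 13 with genes above background on all 4 arrays, 7 with quantile normalization, in the authors' table or with no filter on dim probes, 1 with array weights per group, 0 with only the 4 arrays, and 0 to 38 with 1 array left out. Of these 20, 6 were kept after quantile normalization and 13 without fibroblast replicate 1. Between myofibroblasts and homogenate, 19 calls became 36 (normexp), 35 (intensity trend), 6 (quantile), 4 (authors' table), 52 (median scaling), 58 (array weights), 56 (only the 4 arrays) and 0 to 55 with 1 array left out. Between fibroblasts and homogenate, 1 call became 2 with normexp or quantile normalization, and 1 to 17 with 1 array left out. No call of a named member reversed. With 1 array left out, the lone sample is assumed to vary like the other groups.

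The groups share replicate numbers 1 and 2, but same-numbered samples did not deviate together (correlations of 0.07, 0.04 and -0.01 over 13998 genes). With 1 replicate difference per group, this cannot show whether same-numbered samples share an animal, day or sort. With the replicate number as a block the calls numbered 11, 1 and 8. The median difference moved by more than a standard error in the authors' table (0.51 against fibroblasts and 0.39 against homogenate), and against homogenate with quantile normalization (0.48) and median scaling (1.29).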

Other observations

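Ucp2 and Ucp3 are immediate neighbours on chromosome 7, with 0 genes between them in RefSeq, and their probes gave the same order of the groups. The log2 differences were -6.74 ± 0.43 and -7.11 ± 0.41 between fibroblasts and homogenate (SE, n = 2 per group, limma adjusted p = 0.000504 and 0.0004), and -2.99 ± 0.43 and -3.0 ± 0.41 between myofibroblasts and homogenate (limma adjusted p = 0.00601 and 0.00533). Among regulators, Ppargc1b gave -3.22 and -6.20 in myofibroblasts, -4.13 and -2.73 in fibroblasts and -0.64 and -0.65 in homogenates, so the homogenates stood highest (-4.07 ± 1.01 from myofibroblasts, limma adjusted p = 0.0355). Myc was higher in myofibroblasts than in homogenate by 1.94 ± 0.25 (limma adjusted p = 0.00455).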
